A study of Rattus norvegicus with 13 samples.

Results

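Ribosome biogenesis and translation initiation genes were described in RNA-seq of rat mammary epithelial cells. Members were taken by a rule on gene symbols, which took RNA polymerase I subunits, nucleolar and rRNA processing proteins with names of the Nop, Nol, Noc, Utp and Rrp kind, a short set of single symbols such as *Ncl*, *Npm1*, *Fbl* and *Bop1*, and all symbols of the Eif1 to Eif6 kind except *Eif2ak3*. It found 102 of the 14790 genes in the table. They carry 101 distinct symbols, because *Nol8* was listed under both ENSRNOG00000045569 and ENSRNOG00000046968. By role, 52 of the 102 were set under ribosome biogenesis and 50 under initiation. The 52 include *Nol3*, not known for ribosome assembly, and the 50 include eIF2 kinases and eIF4E-binding proteins. *Eif5* was not among the symbols analysed here.

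Libraries were made from 13 Wistar-Furth rats, 1 from each animal, and no treatment was named. Of these rats, 6 were 6 weeks old and 7 were 10 weeks old. The study takes the younger as inside the window of susceptibility to mammary cancer (within WOS) and the older as outside it (outside WOS). Its methods also call these ages entering and exiting WOS, and the rats susceptible. Per the labels of these samples, abdominal and inguinal glands were digested with collagenase, and ductal fragments were collected on a 40 μm filter meant to take out stromal cells. The methods of the study name differential centrifugation for this step instead. By that account the RNA-seq material also held immune cells and stromal fibroblasts, although epithelium made up most of it. The comparison asks which genes differ in expression between the ages within and outside WOS.

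Ribosomes are assembled in the nucleolus, where RNA polymerase I transcribes the precursor of the large rRNAs. Small nucleolar RNA-protein particles modify this precursor, the small subunit processome and the large subunit assembly factors process and fold it, and ribosomal proteins are added along the way. Initiation factors then bring the initiator tRNA, the mRNA cap and the small subunit together. In the mammary gland, as elsewhere, both steps are known to follow growth signals such as mTORC1 and the transcription factor Myc.

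The values are counts that the authors scaled for each library and rounded, here called normalized counts. They summed to 13261906 to 15659533 in the younger rats and 13766735 to 15402814 in the older ones. No difference between the mean totals was detected (two-sided exact permutation test, p = 0.302). The most abundant gene, AY172581.24, took 14.3% to 27.9% of the total within WOS and 14.5% to 21.2% outside WOS. Without it the total of every younger rat was below that of every older rat (two-sided exact permutation test, p = 0.00117). The depth before scaling is not given in the sources used here. Some whole numbers from 1 to 30 never occurred in 7 rats, most often in rats 78 (16 absent), 80 (15) and 75 (10). Scaling up a shallower library can leave such gaps, but this was not tested. In a principal component analysis of the values left after subtracting the age means, component 1 took 28.3% of the variance and set rats 75, 78, 80, 81 and 83 apart from the other 8, a division that no label names.

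Markers of the labelled cells were present in every rat. All 10 luminal markers and 9 of 10 basal markers listed were measured, with summed levels of 21921 to 40406 and 23693 to 35955 within WOS, and 29966 to 46812 and 32174 to 42435 outside WOS. *Epcam*, a luminal surface protein, was lower within WOS (log2 fold change -0.39 ± 0.12 (SE), limma adjusted p = 0.0454), as was *Cnn1* of the basal cells (log2 fold change -0.46 ± 0.13 (SE), limma adjusted p = 0.0357). Without a single rat, however, *Epcam* passed in 0 of 13 fits, where its adjusted p ran from 0.0505 to 0.0808. *Cnn1* passed in 4 of 13, with an adjusted p of up to 0.0668. Over the lists, 9 of 10 luminal markers were below 0, with a median log2 fold change of -0.13, and 5 of 9 basal markers above 0, with a median of 0.15. These medians were 0.032 and 0.20 in the set of 8 rats, and -0.43 and -0.16 in rats 75, 78, 80, 81 and 83. Fibroblast genes were abundant too, with a summed level of 113836 to 234114 within WOS and 21856 to 58475 outside WOS. Of 7 such markers 5 were higher within WOS, as were 25 of 29 cell cycle genes, beside 8.71% of all genes. Their part in the results for the members was not tested.

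Expression was lower within WOS for 16 of 52 ribosome biogenesis members (30.8%), beside 7.39% of all genes. For the initiation members it was 3 of 50 (6%), a share under that of all genes. A difference between these kinds was not tested. The test was limma on log2(normalized count + 1), adjusted after Benjamini-Hochberg over all 14790 genes, and a log2 fold change below 0 stands for lower expression at 6 weeks. Over all members, 19 of 102 were lower within WOS, where 7.39% of all genes were, and 2 were higher, where 8.71% of all genes were. Every 6-week rat lay below every 10-week rat for 7 members, against 2.78% of all genes, and above for 0, against 3.29% of all genes. At an unadjusted p under 0.05, 36 members were lower, against 14.8% of all genes. The median log2 fold change was -0.15 over the members and 0.028 over all genes. It was -0.34 for the biogenesis members, 42 of 52 of them below 0, and -0.043 for the initiation members, 29 of 50 below 0, a median that turned to 0.047 with column totals set equal without the most abundant gene. When rat 70, 74, 84 or 87 was left out, 10 members were lower in each case, all of them biogenesis genes, beside 4.11% to 4.69% of all genes. In such bulk samples, fewer cells of a type and less RNA per cell cannot be told apart.

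The share of higher and lower calls depended on which scaling was used. Median-ratio scaling gave 21 lower members, beside 1174 lower and 1203 higher genes in the whole table. Upper quartile scaling gave 19, beside 1049 and 1316. With column totals set equal without the most abundant gene (equal totals), 9 members were lower, all of them biogenesis genes, and 3 were higher, beside 592 lower and 1671 higher genes in the whole table, which had 1093 and 1288 before. The 9 were *Polr1b*, *Polr1e*, *Nolc1*, *Nop56*, *Nop58*, *Utp20*, *Rrs1*, *Nop2* and *Rrp1b*, and the other 10 of the 19 lost the call with a log2 fold change still below 0. Among the 8 rats outside the set of rats 75, 78, 80, 81 and 83, 25 members were lower at 6 weeks, against 9.92% of all genes. These 25 hold 15 of the 19, without *Ncl*, *Nol8*, *Eif3j* and *Eif5b*. In the other 5 rats (2 younger, 3 older) limma called 0 members and 0 of all genes. At an unadjusted p under 0.05, 7 members were lower in these 5 rats and 2 higher, beside 5.47% and 7.91% of all genes. Without rats 75, 78 and 80, whose low whole numbers had the most gaps, a choice made after seeing the data, 15 members were lower, 12 of them among the 19, against 6.34% of all genes.

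**Figure D1:**
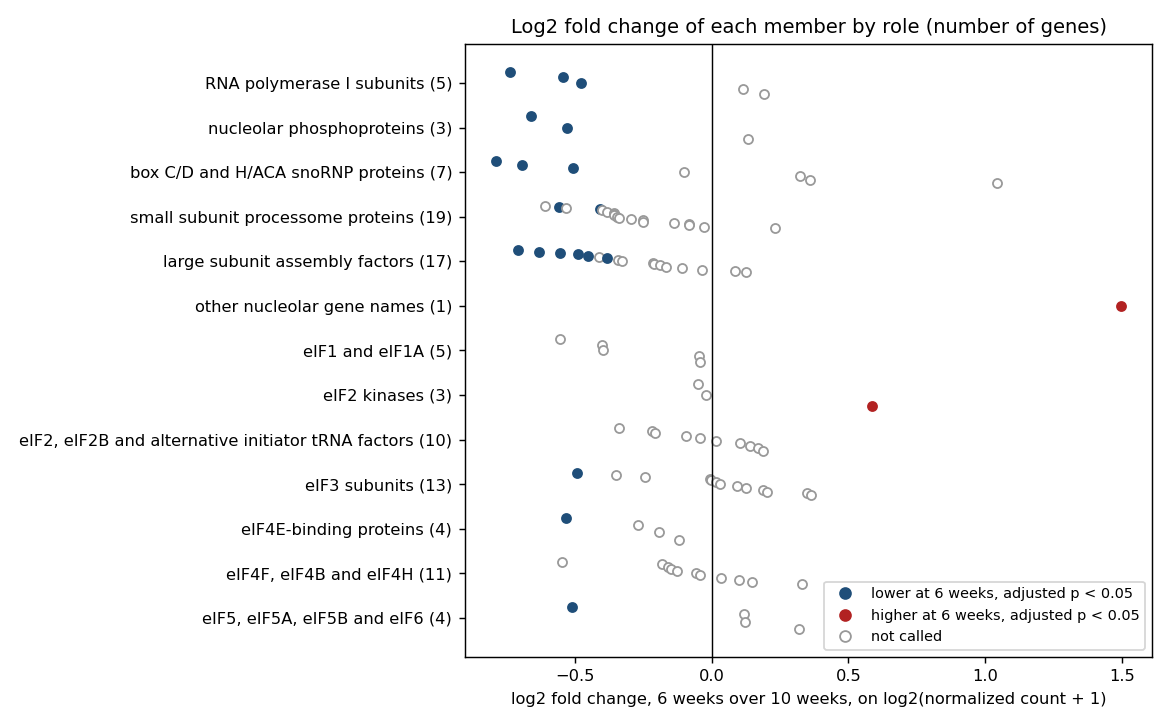
Log2 fold change of each of the 102 members, 6 weeks over 10 weeks, on log2(normalized count + 1), by role. Filled points passed an adjusted p of 0.05 in limma, 19 lower and 2 higher at 6 weeks, and open points did not.

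Both kinds of member were also summarised for each rat, as the median difference of their log2 values from each gene's mean over the 13 rats. For the biogenesis members this deviation ran from -0.26 to -0.090 within WOS (median -0.14) and from 0.021 to 0.30 outside WOS (median 0.16). All 6 younger rats thus lay below all 7 older ones, with rat 70 lowest, rat 74 highest and rat 81 the lowest of the older rats. For the initiation members it was -0.21 to 0.21 in the younger rats and -0.11 to 0.14 in the older ones. Here the ages overlapped in part, since the younger rats ran past the older ones at both ends, with rats 75 and 80 below all of them and rat 84 above.

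**Figure D2:**
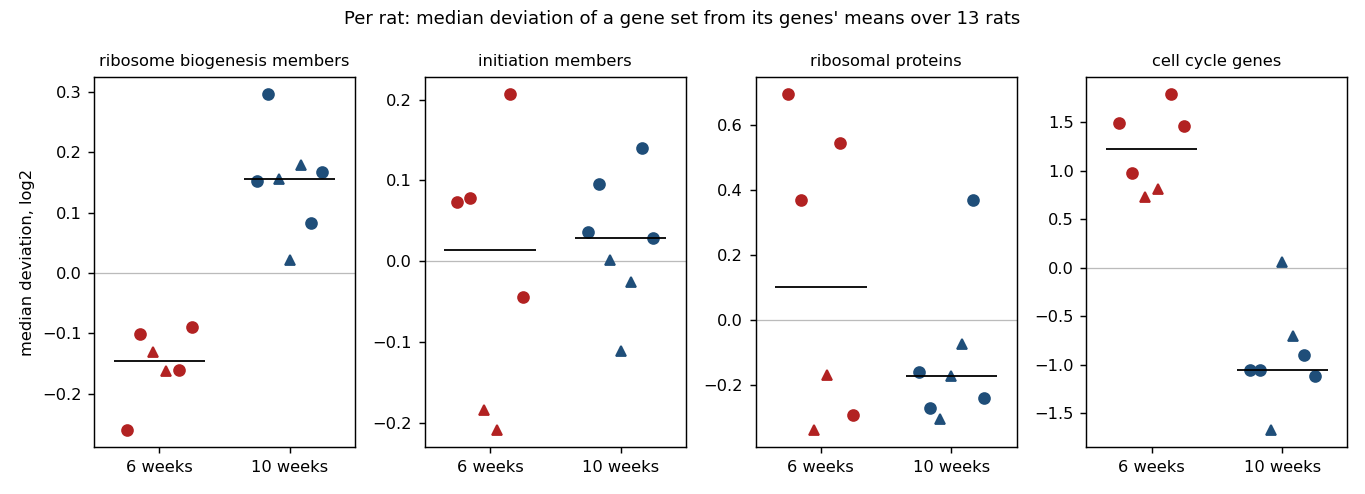
Median deviation in each rat, on the log2 scale, of the 52 biogenesis members, the 50 initiation members, 80 ribosomal protein entries (74 symbols) and 29 cell cycle genes, with a line at the median of each age. Triangles are rats 75, 78, 80, 81 and 83 and circles the other 8. The ages do not overlap for the biogenesis members and the cell cycle genes, and overlap for the others.

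RNA polymerase I makes the rRNA precursor, and 3 of the 5 subunit genes that the rule takes were lower within WOS, beside 7.39% of all genes. *Polr1b* (ENSRNOG00000018349), which encodes a large catalytic subunit, lay at 335 to 467 within WOS, with a median of 376, and at 564 to 768 outside WOS, with a median of 669, a mean of 397 ± 52.3 (SD, n = 6) against 662 ± 74.2 (SD, n = 7, log2 fold change -0.74 ± 0.11 (SE), limma adjusted p = 0.00118). Every younger rat was below every older one, with rat 70 lowest and rat 74 highest. *Polr1e* (ENSRNOG00000012664), whose product helps the enzyme start on rDNA, lay at 150 to 238 within WOS, with a median of 219, and at 280 to 334 outside WOS, with a median of 293 (log2 fold change -0.55 ± 0.12 (SE), limma adjusted p = 0.00817). The ages were apart here as well, and rat 70 was again the lowest. *Polr1a* (ENSRNOG00000009545), the gene of the largest subunit, lay at 637 to 1078 within WOS, with a median of 830, and at 927 to 1377 outside WOS, with a median of 1192 (log2 fold change -0.48 ± 0.13 (SE), limma adjusted p = 0.0275). Its ages overlapped, since rat 75 at 6 weeks was above rats 72 and 85 at 10 weeks. *Polr1a* kept its call in 7 of 13 fits that left out 1 rat, and its adjusted p was 0.0642 without rat 70. The subunits shared with RNA polymerase III, *Polr1c* and *Polr1d*, did not pass (log2 fold change 0.19, adjusted p = 0.325 and log2 fold change 0.11, adjusted p = 0.687).

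Among the abundant nucleolar phosphoproteins, 2 of 3 were lower within WOS, beside 7.39% of all genes. *Nolc1* (ENSRNOG00000018704), a chaperone of small nucleolar particles, lay at 1406 to 2118 within WOS, with a median of 1677, and at 2224 to 3536 outside WOS, with a median of 2775 (log2 fold change -0.66 ± 0.13 (SE), limma adjusted p = 0.00588). The ages did not overlap, and rat 78 stood highest. *Ncl* (ENSRNOG00000018273), nucleolin, which binds nascent rRNA precursor, lay at 5199 to 9082 within WOS, with a median of 7165, and at 7535 to 12519 outside WOS, with a median of 10644 (log2 fold change -0.53 ± 0.15 (SE), limma adjusted p = 0.0363). Rat 86 was the highest of the younger rats and lay above rats 83 and 85 of the older ones, and rat 75 lay above rat 85. *Ncl* kept its call in 6 of 13 fits that left out 1 rat, and its adjusted p was 0.0827 without rat 70. *Npm1* (ENSRNOG00000004616), nucleophosmin, a histone and ribosome chaperone, lay at 6981 to 11831 within WOS, with a median of 10207, and at 7088 to 10685 outside WOS, with a median of 8339, and did not pass (log2 fold change 0.13, adjusted p = 0.603). Its ages overlapped over most of their range, with low values in rats 75, 78, 80 and 83.

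The box C/D particles guide methylation of rRNA, and the genes of both of their paired core proteins were lower within WOS, beside 7.39% of all genes. *Nop56* (ENSRNOG00000007128) lay at 1131 to 1638 within WOS, with a median of 1242.5, and at 1755 to 2523 outside WOS, with a median of 2160 (log2 fold change -0.69 ± 0.12 (SE), limma adjusted p = 0.00242). *Nop58* (ENSRNOG00000016486) lay at 1361 to 1778 within WOS, with a median of 1543.5, and at 1920 to 2539 outside WOS, with a median of 2235 (log2 fold change -0.51 ± 0.10 (SE), limma adjusted p = 0.00493). Neither gene had an overlap between the ages, and in both rat 70 was lowest, rat 86 the highest of the younger rats and rat 74 highest of all. The methyltransferase of the same particles, fibrillarin or *Fbl* (ENSRNOG00000019229), lay at 424 to 459 within WOS, with a median of 436, and at 423 to 597 outside WOS, with a median of 448, and did not pass (log2 fold change -0.10, adjusted p = 0.512). Its values were close together in every rat but rat 81.

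The H/ACA particles guide pseudouridylation, and 1 of their 4 core protein genes was lower within WOS, beside 7.39% of all genes. *Gar1* (ENSRNOG00000061146) lay at 70 to 215 within WOS, with a median of 132, and at 153 to 310 outside WOS, with a median of 229 (log2 fold change -0.79 ± 0.24 (SE), limma adjusted p = 0.0414). Rats 75 and 80 at 6 weeks reached the range of the older rats, and rats 72, 74 and 85 at 10 weeks fell within that of the younger ones. *Gar1* kept its call in 3 of 13 fits that left out 1 rat, and its adjusted p was 0.0887 without rat 84. *Dkc1* (ENSRNOG00000055562), the pseudouridine synthase, lay at 29 to 238 within WOS, with a median of 124.5, and at 16 to 501 outside WOS, with a median of 35, and did not pass (log2 fold change 0.32, adjusted p = 0.825). Its values did not follow age, as they were at least 183 in rats 70, 75, 78, 80, 81 and 83 and at most 66 in the other 7. *Nhp2* was listed at 0 in rat 78 and at 170 in rat 70, and did not pass (log2 fold change 1.04, adjusted p = 0.491). Without rat 78, its log2 fold change was 0.089. *Nop10* did not pass either (log2 fold change 0.36, adjusted p = 0.249). For the 7 particle proteins together the median log2 fold change was -0.10, and it was 0.022 in the set of 8 rats.

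**Figure D3:**
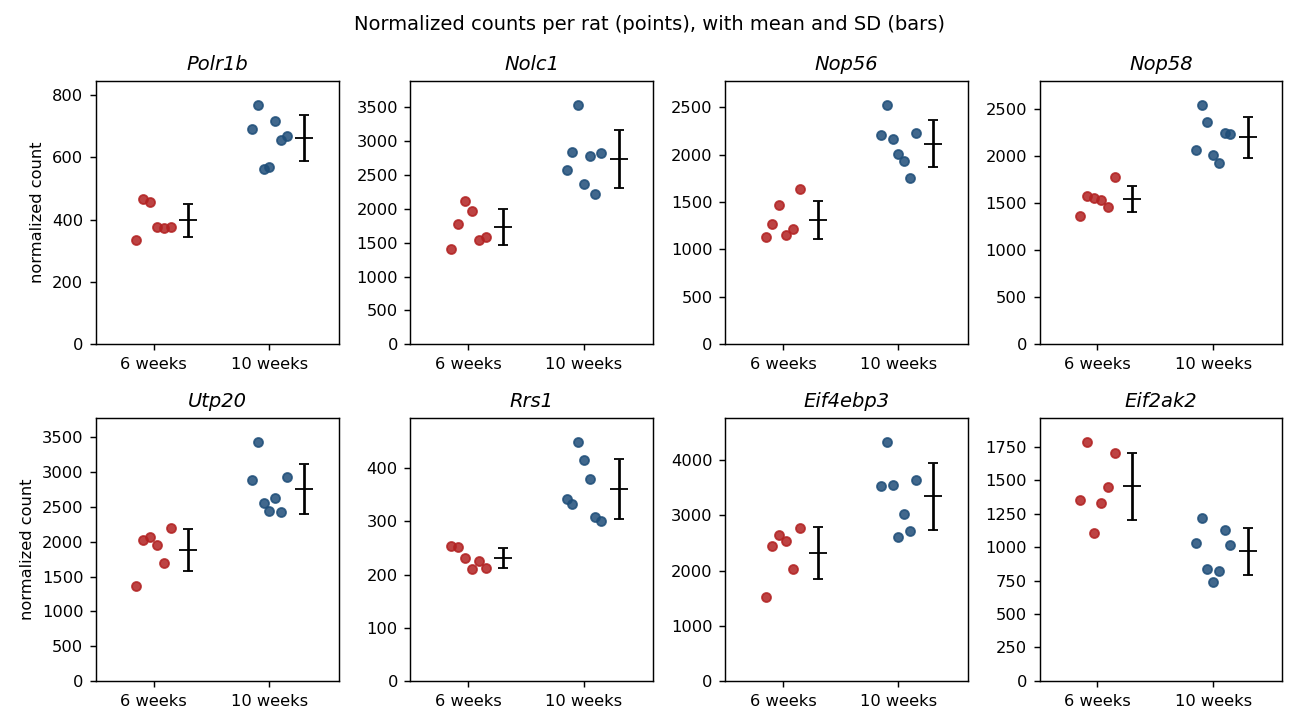
Normalized counts of 8 members in each rat, with the mean and SD of each age (6 rats at 6 weeks, 7 at 10 weeks) as bars. *Polr1b*, *Nolc1*, *Nop56*, *Nop58*, *Utp20* and *Rrs1* are lower in every 6-week rat than in any 10-week rat, while *Eif4ebp3* (lower) and *Eif2ak2* (higher) passed the test with an overlap between the ages.

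The small subunit processome folds and cleaves the 5′ part of the rRNA precursor. Of 19 genes of this kind, 2 were lower within WOS, beside 7.39% of all genes, 18 had a log2 fold change below 0 and the median was -0.35. *Utp20* (ENSRNOG00000005823), a large scaffold protein, lay at 1370 to 2192 within WOS, with a median of 1991.5, and at 2430 to 3439 outside WOS, with a median of 2632 (log2 fold change -0.56 ± 0.13 (SE), limma adjusted p = 0.0131). No younger rat reached the range of the older ones, and rat 70 was lowest. *Wdr43* (ENSRNOG00000026316), which belongs to the module that loads on the precursor early, lay at 1972 to 2744 within WOS, with a median of 2369.5, and at 2602 to 3729 outside WOS, with a median of 3053 (log2 fold change -0.41 ± 0.11 (SE), limma adjusted p = 0.0278). Only rat 71 at 6 weeks was above any older rat, namely rat 81. *Wdr43* kept its call in 8 of 13 fits that left out 1 rat, and its adjusted p was 0.0623 without rat 70. At an unadjusted p under 0.05, 10 of the 19 genes were lower, beside 14.8% of all genes. Of these, 8 did not pass, among them *Nol6*, with the largest value of the group (log2 fold change -0.61, adjusted p = 0.109), and *Rrp12*, which takes part in export of the small subunit (log2 fold change -0.53, adjusted p = 0.0863). *Nol6* lay at 311 to 649 within WOS, with a median of 391.5, and at 393 to 1076 outside WOS, with a median of 634, and rats 75 and 80 were highest of the younger rats and rats 78 and 83 of the older ones. *Nol7* was the single gene of the group above 0 (log2 fold change 0.23, adjusted p = 0.188).

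Among 17 genes for assembly of the large subunit, 6 were lower within WOS, beside 7.39% of all genes, and the median log2 fold change was -0.33. *Rrs1* (ENSRNOG00000007240), which helps place the 5S particle in the precursor, lay at 211 to 253 within WOS, with a median of 229, and at 300 to 450 outside WOS, with a median of 343 (log2 fold change -0.63 ± 0.12 (SE), limma adjusted p = 0.00343). The younger rats lay close together below all the older ones. *Nop2* (ENSRNOG00000018453), a methyltransferase of the large rRNA, lay at 260 to 436 within WOS, with a median of 323.5, and at 376 to 681 outside WOS, with a median of 553 (log2 fold change -0.71 ± 0.15 (SE), limma adjusted p = 0.00744). Rat 75 at 6 weeks was above rat 85 at 10 weeks, and otherwise the ages were apart. *Rrp15* (ENSRNOG00000002450), needed for early particles, lay at 212 to 272 within WOS, with a median of 241.5, and at 267 to 384 outside WOS, with a median of 340 (log2 fold change -0.45 ± 0.11 (SE), limma adjusted p = 0.0151). There, rat 80 at 6 weeks passed rat 81 at 10 weeks, the sole overlap. *Rrp1b* (ENSRNOG00000001194), a nucleolar partner of early particles, lay at 120 to 194 within WOS, with a median of 129.5, and at 173 to 241 outside WOS, with a median of 209 (log2 fold change -0.55 ± 0.13 (SE), limma adjusted p = 0.0156). Rat 75 was again the only younger rat inside the range of the older rats.

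*Noc3l* (ENSRNOG00000013965), whose yeast counterpart acts in transport of the precursor particle, lay at 808 to 1009 within WOS, with a median of 888.5, and at 979 to 1367 outside WOS, with a median of 1170 (log2 fold change -0.38 ± 0.10 (SE), limma adjusted p = 0.0259). Rat 86 at 6 weeks lay above rat 83 at 10 weeks. *Noc3l* kept its call in 8 of 13 fits that left out 1 rat, and its adjusted p was 0.063 without rat 70. The *Nol8* entry ENSRNOG00000045569 lay at 357 to 587 within WOS, with a median of 489.5, and at 558 to 797 outside WOS, with a median of 635 (log2 fold change -0.49 ± 0.14 (SE), limma adjusted p = 0.0301). Rat 86 at 6 weeks lay above rats 81, 83 and 85 at 10 weeks. It kept its call in 6 of 13 fits that left out 1 rat, and its adjusted p was 0.0706 without rat 70. The other entry, ENSRNOG00000046968, lay at 148 to 270 within WOS, with a median of 188, and at 95 to 279 outside WOS, with a median of 188, and did not pass (log2 fold change 0.13, adjusted p = 0.74). How reads were divided between entries with the same symbol is not given in the sources used here.

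The PeBoW complex, which joins Pes1, Bop1 and Wdr12 and is needed for large subunit rRNA processing, showed no member past the test. *Pes1* lay at 752 to 1090 within WOS, with a median of 975.5, and at 878 to 1113 outside WOS, with a median of 969 (log2 fold change -0.036, adjusted p = 0.845). *Bop1* lay at 345 to 560 within WOS, with a median of 461, and at 395 to 724 outside WOS, with a median of 452 (log2 fold change -0.11, adjusted p = 0.681), and *Wdr12* lay at 328 to 575 within WOS, with a median of 472, and at 423 to 611 outside WOS, with a median of 543 (log2 fold change -0.17, adjusted p = 0.445). For all 3 the ages overlapped over most of their range. The intervals of the log2 fold change (95%) ran from -0.27 to 0.20 for *Pes1*, from -0.46 to 0.24 for *Bop1* and from -0.47 to 0.14 for *Wdr12*. *Rrp8*, a nucleolar methyltransferase, was just outside the threshold (log2 fold change -0.41, adjusted p = 0.0516), and so was *Nol9*, a kinase that acts on RNA ends (log2 fold change -0.33, adjusted p = 0.0669).

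*Nol3* (ENSRNOG00000015588) meets the rule by its symbol, but its product is known as an apoptosis repressor with a caspase recruitment domain and not for ribosome assembly. It lay at 27 to 60 within WOS, with a median of 51, and at 4 to 27 outside WOS, with a median of 18, and was higher within WOS (log2 fold change 1.50 ± 0.36 (SE), limma adjusted p = 0.0154). Rat 83, the highest of the older rats, had the same value as rat 84, the lowest of the younger ones. These counts are low, and the log2(normalized count + 1) scale understates the change of such genes.

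Initiation begins with factors that hold the small subunit open for scanning. Of the 5 genes for eIF1 and eIF1A, 0 passed in limma and the median log2 fold change was -0.40. At an unadjusted p under 0.05, 3 were lower, beside 14.8% of all genes. *Eif1* lay at 4360 to 10006 within WOS, with a median of 6854, and at 7607 to 11662 outside WOS, with a median of 9985 (log2 fold change -0.55, adjusted p = 0.0569). Rat 86 at 6 weeks reached the range of the older rats, and rat 71 lay just above the lowest of them, rat 83. *Eif1a* (log2 fold change -0.40, adjusted p = 0.0589) and *Eif1ad*, a gene named for its eIF1A domain (log2 fold change -0.40, adjusted p = 0.0675), came close to the threshold too, while *Eif1ax* did not (log2 fold change -0.043, adjusted p = 0.881).

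The eIF2 complex delivers the initiator tRNA, eIF2B recharges it with GTP, and kinases shut it off under stress by phosphorylating its alpha subunit. None of the 10 genes for eIF2, eIF2B and the alternative initiator tRNA factors passed in limma. Of these, 0 had an unadjusted p under 0.05, where 14.8% of all genes were lower and 16.8% higher. *Eif2s1*, the alpha subunit, lay at 1070 to 1666 within WOS, with a median of 1517.5, and at 1208 to 1990 outside WOS, with a median of 1446 (log2 fold change -0.095, adjusted p = 0.727). Its values were lowest in rats 75 and 80 and highest in rats 74 and 85, with a broad overlap of the ages. *Eif2b3*, a subunit of eIF2B, had the largest value of the group (log2 fold change -0.34, adjusted p = 0.177), with rat 80 lowest at 6 weeks and rat 81 at 10 weeks. Of the kinases, *Eif2ak2* (ENSRNOG00000048315), the kinase PKR that senses double-stranded RNA, lay at 1109 to 1789 within WOS, with a median of 1401.5, and at 736 to 1220 outside WOS, with a median of 1020, and was higher within WOS (log2 fold change 0.59 ± 0.15 (SE), limma adjusted p = 0.02). Rat 75 was the only younger rat within the range of the older ones, below rats 74 and 85. *Eif2ak1* (log2 fold change -0.020, adjusted p = 0.932) and *Eif2ak4* (log2 fold change -0.051, adjusted p = 0.713), which sense low heme and uncharged tRNA, did not pass.

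The eIF3 complex is the scaffold on the small subunit, and 1 of its 13 genes was lower within WOS, a share close to the 7.39% of all genes, with a median log2 fold change of 0.029. *Eif3j* (ENSRNOG00000016459), a loosely bound subunit, lay at 1360 to 2350 within WOS, with a median of 1855.5, and at 2080 to 3119 outside WOS, with a median of 2466 (log2 fold change -0.49 ± 0.14 (SE), limma adjusted p = 0.0295). Rat 86 was the only younger rat inside the range of the older ones. *Eif3j* kept its call in 8 of 13 fits that left out 1 rat, and its adjusted p was 0.069 without rat 84. *Eif3a*, the largest subunit, lay at 5246 to 7746 within WOS, with a median of 6749, and at 6934 to 10301 outside WOS, with a median of 8526, and did not pass (log2 fold change -0.35, adjusted p = 0.0662). For *Eif3a* the ages overlapped in rats 71, 75 and 86 at 6 weeks and rats 81, 83 at 10 weeks. At the other end stood *Eif3k* (log2 fold change 0.36, adjusted p = 0.235) and *Eif3f* (log2 fold change 0.35, adjusted p = 0.258), which were highest in rats 70, 71 and 84 at 6 weeks for the former and in rats 70, 71, 84 and 85 for the latter.

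The eIF4F complex binds the cap and unwinds the leader of the mRNA. Among the 11 genes for eIF4F, eIF4B and eIF4H, 0 passed in limma. At an unadjusted p under 0.05, 1 was lower and 1 higher, beside 14.8% and 16.8% of all genes. *Eif4e*, the cap-binding protein, lay at 2910 to 3773 within WOS, with a median of 3503, and at 2839 to 4193 outside WOS, with a median of 3529 (log2 fold change -0.056, adjusted p = 0.779), with an interval (95%) of the log2 fold change from -0.31 to 0.20. *Eif4g1*, the scaffold, lay at 4737 to 5929 within WOS, with a median of 5296, and at 5269 to 6708 outside WOS, with a median of 5963 (log2 fold change -0.18, adjusted p = 0.197), and *Eif4a1*, the main helicase, lay at 8590 to 13145 within WOS, with a median of 11275, and at 10030 to 14064 outside WOS, with a median of 11653 (log2 fold change -0.13, adjusted p = 0.519). All 3 had a broad overlap of the ages. *Eif4a2*, the related helicase, lay at 4900 to 6804 within WOS, with a median of 5165, and at 4820 to 11081 outside WOS, with a median of 7394, and came close to the threshold (log2 fold change -0.55, adjusted p = 0.0593). At 10 weeks its values were widely spread, from rat 81, below every younger rat, to rats 74 and 85, while 5 of the 6 younger rats lay within a narrow band. The other gene was *Eif4a3*, the helicase of the exon junction complex (log2 fold change 0.33, adjusted p = 0.0927).

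The eIF4E-binding proteins hold eIF4E away from eIF4G when mTORC1 is inactive. Of the 4 genes in this group, which includes the eIF4E transporter *Eif4enif1*, 1 was lower within WOS, beside 7.39% of all genes. *Eif4ebp3* (ENSRNOG00000030247) lay at 1517 to 2774 within WOS, with a median of 2489, and at 2599 to 4334 outside WOS, with a median of 3536 (log2 fold change -0.53 ± 0.16 (SE), limma adjusted p = 0.044). Rats 75 and 86 at 6 weeks were above rat 81 at 10 weeks, and rat 86 also above rat 85. *Eif4ebp3* kept its call in 4 of 13 fits that left out 1 rat, and its adjusted p was 0.094 without rat 84. The most studied of them, *Eif4ebp1*, lay at 249 to 473 within WOS, with a median of 323.5, and at 285 to 504 outside WOS, with a median of 404 (log2 fold change -0.19, adjusted p = 0.483), and *Eif4ebp2* lay at 142 to 222 within WOS, with a median of 195, and at 144 to 345 outside WOS, with a median of 237 (log2 fold change -0.27, adjusted p = 0.314). Neither passed, and their ages overlapped.

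At subunit joining, eIF5B brings in the large subunit, and *Eif5b* (ENSRNOG00000023356) lay at 1282 to 2118 within WOS, with a median of 1706, and at 1975 to 2908 outside WOS, with a median of 2410 (log2 fold change -0.51 ± 0.14 (SE), limma adjusted p = 0.0248). Rat 86 was the only younger rat inside the range of the older ones. *Eif5b* kept its call in 9 of 13 fits that left out 1 rat, and its adjusted p was 0.0581 without rat 70. *Eif6*, whose product keeps free large subunits from joining, lay at 837 to 1868 within WOS, with a median of 1555.5, and at 795 to 1539 outside WOS, with a median of 1117, and did not pass (log2 fold change 0.32, adjusted p = 0.304). *Eif5a*, the hypusinated factor, lay at 3491 to 4410 within WOS, with a median of 3757, and at 3050 to 4920 outside WOS, with a median of 3391 (log2 fold change 0.12, adjusted p = 0.544). Rat 81 was highest for *Eif5a*, and rat 70 for *Eif6*, with ages overlapping in both.

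Members varied between rats of the same age by different amounts. The SD of log2 values within the ages had a median of 0.24 over the members and 0.37 over all genes. It was largest for *Nhp2* (1.91), *Dkc1* (1.67) and *Nol3* (0.70), and smallest, at 0.093, for an initiation member.

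Other genes of ribosome assembly, not taken by the rule on symbols, were also measured. Of 56 further biogenesis factors measured, 14 were lower within WOS and 0 higher in limma, beside 7.39% and 8.71% of all genes, also 0 higher at an unadjusted p under 0.05, with a median log2 fold change of -0.26. *Tsr1*, which acts in maturation of the small subunit, lay at 1386 to 2482 within WOS, with a median of 2143, and at 2515 to 3735 outside WOS, with a median of 3113 (log2 fold change -0.63 ± 0.15 (SE), limma adjusted p = 0.013). Its ages did not overlap. *Mphosph10*, of the small subunit processome, was lower as well (log2 fold change -0.64 ± 0.14 (SE), limma adjusted p = 0.00869), and so was *Mdn1*, the large ATPase that strips assembly factors from the large subunit (log2 fold change -0.64 ± 0.17 (SE), limma adjusted p = 0.0257). *Mdn1* kept its call in 9 of 13 fits that left out 1 rat, and its adjusted p was 0.0612 without rat 84. With equal totals 4 of the 56 were lower, beside 592 of all genes, and without rats 75, 78 and 80, 9 were, beside 6.34% of all genes. With 1 rat left out, 5 to 16 were lower, the fewest without rat 70, 74, 84 or 87.

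Further genes of RNA polymerase I, subunits and accessory factors, and the genes of RNA polymerase III, which makes 5S rRNA and tRNAs, numbered 29. Of these, 4 were lower within WOS and 1 higher, beside 7.39% and 8.71% of all genes, with a median log2 fold change of -0.18. *Polr3f*, a subunit of RNA polymerase III, lay at 270 to 383 within WOS, with a median of 321, and at 477 to 756 outside WOS, with a median of 543 (log2 fold change -0.83 ± 0.14 (SE), limma adjusted p = 0.00208). *Bdp1*, of the factor that recruits this enzyme, was lower too (log2 fold change -0.67 ± 0.13 (SE), limma adjusted p = 0.00574). In both genes every younger rat was below every older one. *Cd3eap*, a subunit gene of RNA polymerase I that the rule on symbols does not take, was lower (log2 fold change -0.56, adjusted p = 0.0243 in limma), and passed in 11 of 13 fits that left out 1 rat. The subunit genes *Twistnb* (log2 fold change -0.40, adjusted p = 0.0531) and *Znrd1* (log2 fold change 0.28, adjusted p = 0.198) did not pass. *Maf1*, a repressor of RNA polymerase III, lay at 288 to 536 within WOS, with a median of 426.5, and at 151 to 361 outside WOS, with a median of 268, and was higher within WOS (log2 fold change 0.74 ± 0.20 (SE), limma adjusted p = 0.0232). Its ages overlapped, and it kept its call in 11 of 13 fits that left out 1 rat, and its adjusted p was 0.0584 without rat 70. Equal totals gave 3 lower and 3 higher genes of the 29 and a median of -0.087, and fits that left out 1 rat gave 3 to 5 lower and 0 to 3 higher.

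Of 26 mTORC1 and Myc regulators, 4 were lower and 2 higher within WOS, beside 7.39% and 8.71% of all genes, with a median log2 fold change of -0.086. *Myc*, a transcription factor known to drive genes of ribosome biogenesis, lay at 2731 to 3566 within WOS, with a median of 3077, and at 4234 to 6359 outside WOS, with a median of 5218 (log2 fold change -0.73 ± 0.12 (SE), limma adjusted p = 0.00172). The ages did not overlap. *Ddit4*, which restrains mTORC1 under stress, was also lower (log2 fold change -0.87 ± 0.23 (SE), limma adjusted p = 0.0222), while *Mycn*, a relative of *Myc*, was higher at low counts (log2 fold change 0.69 ± 0.19 (SE), limma adjusted p = 0.0299), at 16 to 42 in the younger and 13 to 20 in the older rats. *Ddit4* kept its call in 11 of 13 fits that left out 1 rat, and its adjusted p was 0.0558 without rat 70. *Mycn* kept its call in 9 of 13 fits that left out 1 rat, and its adjusted p was 0.067 without rat 70. With equal totals the list had 2 lower and 4 higher, beside 4.0% and 11.3% of all genes, and a median of 0.0026. In the set of 8 rats it had 3 lower and 4 higher, beside 9.92% and 13.6% of all genes. Fits that left out 1 rat gave 1 to 4 lower and 0 to 4 higher. Binding and protein were not analysed here, and a part of *Myc* in the result was not tested.

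Downstream of initiation, a list of 12 genes for elongation, termination, recycling and rescue of ribosomes had 2 lower and 1 higher within WOS, beside 7.39% and 8.71% of all genes. None of the elongation and termination factors proper, *Eef1a1*, *Eef1b2*, *Eef1d*, *Eef1g*, *Eef2*, *Etf1* and *Gspt2*, passed. *Eef1e1*, a scaffold of the synthetase complex, was lower in all younger rats (log2 fold change -0.58 ± 0.12 (SE), limma adjusted p = 0.00828), and *Pelo*, which frees stalled ribosomes, was higher in all of them (log2 fold change 0.41 ± 0.10 (SE), limma adjusted p = 0.0144). The recycling factor *Abce1* was lower (log2 fold change -0.41 ± 0.13 (SE), limma adjusted p = 0.0422), but it kept its call in 3 of 13 fits that left out 1 rat, and its adjusted p was 0.0851 without rat 70. Equal totals gave 1 lower and 1 higher, and fits that left out 1 rat gave 1 to 2 lower. A list of 22 genes for cytosolic aminoacyl-tRNA synthetases, which charge tRNAs, also held *Aimp1* and *Aimp2*, which encode partner proteins and not synthetases. Of the 22 genes, 4 were lower and 1 was higher, beside the same shares of all genes. *Lars* (log2 fold change -0.60 ± 0.14 (SE), limma adjusted p = 0.0121), *Iars* (log2 fold change -0.48 ± 0.13 (SE), limma adjusted p = 0.0295) and *Yars* (log2 fold change -0.46 ± 0.13 (SE), limma adjusted p = 0.0282) were lower. *Iars* kept its call in 8 of 13 fits that left out 1 rat, and its adjusted p was 0.0698 without rat 70, and *Yars* kept its call in 7 of 13 fits that left out 1 rat, and its adjusted p was 0.0683 without rat 70. *Wars* was higher (log2 fold change 0.35, adjusted p = 0.0345 in limma), but it passed in 4 of 13 fits that left out 1 rat, where its adjusted p ran up to 0.0629. The counts of this list moved to 1 lower and 2 higher at equal totals, to 2 lower and 1 higher without rats 75, 78 and 80, and to 8 lower and 0 higher in the set of 8 rats. With 1 rat left out there were 1 to 8 lower and 0 to 1 higher.

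Genes for cytosolic ribosomal proteins, the parts that the assembly factors put together, had log2 fold changes mostly above 0. The 80 entries measured carry 74 distinct symbols, since *Rpl21* was listed 3 times and *Rpl7a*, *Rpl32*, *Rps27a* and *Rps4x* 2 times each, the *Rpl7a* entries with identical values in every rat. Of the 80 entries, 0 passed in limma, with 5 higher and 0 lower within WOS at an unadjusted p under 0.05, beside 16.8% and 14.8% of all genes, while 1 was higher without rats 75, 78 and 80. Their median log2 fold change was 0.24, with 74 entries above 0, and in the set of rats 75, 78, 80, 81 and 83 it was -0.10. Their median deviation per rat was -0.34 to 0.70 in the younger rats and -0.30 to 0.37 in the older ones. Rats 70, 71 and 84 at 6 weeks and rat 85 at 10 weeks were high, and the other 9 rats were below 0. Whether the ribosomal protein genes and the assembly factors differ in their response was not tested.

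Markers of other cells and cell cycle genes also differed between the ages. Of 7 fibroblast markers measured, 5 were higher within WOS and 0 lower, beside 8.71% and 7.39% of all genes, with a median log2 fold change of 1.44. Their summed level was 113836 to 234114 within WOS and 21856 to 58475 outside WOS, with *Col3a1* the most abundant (log2 fold change 2.14 ± 0.26 (SE), limma adjusted p = 0.00029). Of 29 cell cycle genes, 25 were higher, beside 8.71% of all genes, with a median log2 fold change of 2.12. Their summed level was 6652 to 12795 within WOS and 3025 to 4910 outside WOS. The most abundant of them, *Pcna*, did not pass (log2 fold change 0.12, adjusted p = 0.548 in limma). Rat 81, lowest of the older rats for the biogenesis members, was highest among them for the cell cycle genes. Rat 78, lowest of the older rats for the cell cycle genes (-1.68), held their median for the biogenesis members (0.16). *Kif23*, needed for division of the cell body, lay at 230 to 304 within WOS, with a median of 260, and at 56 to 82 outside WOS, with a median of 65 (log2 fold change 2.02 ± 0.11 (SE), limma adjusted p = 2.24e-06). The part of the fibroblast genes and of the cell cycle genes in the result was not tested.

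For the lists that follow, the shares of all genes were 8.71% higher and 7.39% lower within WOS. Of 7 mast cell markers, 6 were higher within WOS and 1, *Kit*, was lower. For the 6 higher ones the ages did not overlap, beside 3.29% of all genes. The summed level of the 7 was 2223 to 3990 within WOS and 1567 to 3798 outside WOS, and *Kit* dominated it. *Kit* passed in 4 and *Cd79b*, of the lymphocytes, in 7 of 13 fits that left out 1 rat. The 3 red blood cell genes were higher, at 1251 to 3151 within WOS and 186 to 829 outside WOS, nearly all from *Hbb*, and 1 of them, *Alas2*, passed in 11 of 13 such fits. Of 6 adipocyte markers 3 were higher, all at low counts, with *Plin1* at 4 to 19, *Adipoq* at 20 to 56 and *Cfd* at 42 to 159 within WOS. The sum over the 6 was 4748 to 7447 within WOS and 2967 to 6095 outside WOS, mostly from *Lpl* and *Fabp4*, which did not pass (log2 fold change 0.53, adjusted p = 0.0704 and log2 fold change -0.090, adjusted p = 0.764). Without rats 75, 78 and 80, 1 of the 6 was higher, and *Cfd* passed in 5 of 13 fits that left out 1 rat, with an adjusted p of up to 0.0811. Of 4 lymphocyte markers 1, *Cd79b*, was higher at very low counts, with sums of 73 to 210 within WOS and 90 to 314 outside WOS. None passed in limma among 9 macrophage markers (875 to 2005 within WOS and 1019 to 2250 outside WOS, 1 lower at an unadjusted p under 0.05), 7 endothelial markers (6611 to 11052 within WOS and 6001 to 9522 outside WOS, 1 higher), 3 skeletal muscle markers (42 to 73 within WOS and 16 to 62 outside WOS, 1 higher) and 6 milk protein genes (9277 to 57071 within WOS and 8102 to 221139 outside WOS, 0 at an unadjusted p under 0.05). Their part in the result was not tested.

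Promoters of the members were searched for CACGTG, the E-box letters that Myc with its partner Max is known to bind, which are their own reverse complement and so read the same on both strands. RefSeq promoters on GRCr8, 300 bases from 250 before to 50 after the start of the gene, were matched by symbol for 92 of the 102 members, which gave 91 distinct promoters. The letters were in 23 of 91 member promoters (25.3%), and in 1826 of all 27457 promoters (6.65%) or 1380 of 18999 of protein-coding genes (7.26%). They were in 14 of 46 promoters of biogenesis members (30.4%) and 9 of 45 of initiation members (20%). Among biogenesis members, 4 of 14 of those lower within WOS had them (28.6%), and 10 of 32 of those not called (31.2%). A match describes the letters only. The stretches given here are those of the 4 lower members with a match, to show where it lies, with the searched letters in capitals, each read 5′ to 3′ on the strand of the gene.
Utp20: cagcactagctaCACGTGagaaaaagcaga
Nop2: cttccccaagtgCACGTGgagcgg
Rrp15: ccgttcaggactCACGTGtgaaccccggag
Noc3l: ttgagctctgggCACGTGtgtgtttcctac
The Utp20 stretch lies at chr7:25102959-25102988 on the minus strand, with its match before the start of the gene. The Nop2 stretch lies at chr4:159618992-159619015 on the plus strand, with its match after the start of the gene. The Rrp15 stretch lies at chr13:100830769-100830798 on the minus strand, with its match after the start of the gene. The Noc3l stretch lies at chr1:245997673-245997702 on the minus strand, with its match after the start of the gene.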

How the data were processed

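RNA-seq of mammary epithelial cells from 13 rats (6 at 6 weeks, 7 at 10 weeks) was analysed from per-rat values. The authors deposited these values as scaled and rounded counts, a unit treated here as a score. The processing notes of the submitters name RSEM 1.2.22, edgeR, DESeq2 and the build rn5, while the paper names rn6 for its Hi-C. The annotation is not given in the sources used here, nor is the depth before scaling. The deposited columns of the authors' EdgeR comparison (fold changes, mean abundance, a likelihood ratio, p-values and false discovery rates) and a word on location were not used. All 13 per-rat columns were matched to samples, and 0 were unmapped.

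The ages were compared by limma 3.58.1 (R 4.3.3) after a log2(normalized count + 1) transform. A gene needed a mean of 1 or more, which all 14790 had. The fit was run with two-sided p-values, no covariate, and a threshold of 0.05 after Benjamini-Hochberg adjustment. The fit was tested on simulated data. Summaries, exact permutation tests of totals and figures used Python 3.11.15, numpy 2.4.6, pandas 2.3.3, scipy 1.17.1 and matplotlib 3.10.9. Members came from a rule on symbols and roles from further rules on symbols. Members and lists were chosen with earlier results of these data known. Named genes are the called members, the member with the largest log2 fold change of each role with a mean of at least 100, a fixed set of well-known members, and at most 3 called genes of each other list. Genes named beside these were picked with their values in view. Alternatives were 3 other scalings, a pseudocount of 0.1, no minimum, a minimum of 10 in every rat, limma-trend, sample quality weights, the rat set as a term or alone, and each rat left out in turn. Lists of the pathway and of markers are those given with their counts in the results.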

Additional observations from a re-analysis of the deposited data

Results flagged for a closer look

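In 3 of 82 groups (41 named members, 2 ages) a single rat stood far from the others of its age, relative to their whole range. Chance flags about 1 in 20 groups. *Fbl* was 597 normalized counts in rat 81 at 10 weeks, where the next highest was 496 and the lowest 423. *Eif2b3* was 238 in the same rat, where the next lowest was 382 and the highest 434. *Eif4a2* was 6804 in rat 71 at 6 weeks, where the next highest was 5179 and the lowest 4900. None of the 3 genes passed the comparison of the ages.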

How the results depend on the processing

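All 19 members lower within WOS stayed below 0 in every alternative run, and no called gene among those named changed sign. Over the named genes and alternatives, 1566 values kept their side of the threshold and direction, 231 lost the call, 24 gained it and 16 values that were not called changed sign. With the rat set as a term, 10.6% of all genes were lower, beside 31 members. The median over biogenesis members ran from -0.36 to -0.25 over all alternatives. Counts given here are of genes lower at 6 weeks unless another direction is named, and the cause of each change was not tested. The rat set was formed from variation within the ages, so its use as a term narrows that variation.

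With median-ratio scaling, counts came to 1 for the eIF1 group, where 7.94% of all genes were lower. With column totals set equal without the most abundant gene, counts came to 592 for DE genes lower within WOS, 12 for members called, 9 for members, 9 for ribosome biogenesis members, 4 for other ribosome biogenesis factors, 1 for nucleolar phosphoproteins, 1 for small subunit processome proteins, 3 for large subunit assembly factors. Limma there called 0 in initiation members, eIF3 subunits, eIF4E-binding proteins, the eIF5 and eIF6 group. At an unadjusted p under 0.05, 24 members were lower and 7 higher, beside 4691 of all 14790 genes in either direction. Medians (log2) moved to -0.064 for ribosome biogenesis and initiation members, -0.25 for ribosome biogenesis members, -0.26 for small subunit processome proteins. With a minimum of 10 in every rat, counts came to 1 for members (higher), 6 for initiation members, 2 for the eIF1 group, 1 for the eIF4F group. In that fit 9.33% of all genes tested were lower and 9.73% higher. Medians (log2) moved to -0.30 for box C/D and H/ACA snoRNP proteins. With limma-trend, counts came to 8 for initiation members, 3 for the eIF1 group, 2 for eIF3 subunits, 1 for the eIF4F group. In that fit 8.48% of all genes were lower. With limma's sample quality weights, counts came to 5647 for all DE genes, 3009 for DE genes higher within WOS, 2638 for DE genes lower within WOS, 48 for members called, 38 for members, 10 for members (higher), 27 for ribosome biogenesis members, 11 for initiation members, 25 for other ribosome biogenesis factors, 10 for small subunit processome proteins, 3 for the eIF1 group, 1 for the eIF2 and eIF2B group, 3 for eIF3 subunits, 2 for the eIF4F group. Medians (log2) moved to -0.25 for small subunit processome proteins. With the rat set as a term, counts came to 33 for members called, 31 for members, 8 for initiation members, 8 for small subunit processome proteins, 2 for the eIF1 group, 1 for the eIF2 and eIF2B group, 2 for eIF3 subunits, 1 for the eIF4F group. In the set of 8 rats, counts came to 2003 for DE genes higher within WOS, 6 for initiation members, 1 for nucleolar phosphoproteins, 4 for small subunit processome proteins, 2 for the eIF1 group, 1 for the eIF2 and eIF2B group, 2 for the eIF4F group. In that set 9.92% of all genes were lower. Limma there called 0 in eIF3 subunits, the eIF5 and eIF6 group. At an unadjusted p under 0.05, 38 members were lower and 9 higher, beside 5986 of all 14774 genes tested in either direction. Medians (log2) moved to 0.022 for box C/D and H/ACA snoRNP proteins, -0.43 for large subunit assembly factors, -0.083 for eIF4E-binding proteins. In rats 75, 78, 80, 81 and 83, limma called 0 in all DE genes, DE genes higher within WOS, DE genes lower within WOS, members called, members, members (higher), ribosome biogenesis members, initiation members, other ribosome biogenesis factors, RNA polymerase I subunits, nucleolar phosphoproteins, box C/D and H/ACA snoRNP proteins, small subunit processome proteins, large subunit assembly factors, eIF3 subunits, eIF4E-binding proteins, the eIF5 and eIF6 group, with 7 members lower at an unadjusted p under 0.05. Medians (log2) moved to -0.33 for RNA polymerase I subunits, -0.39 for box C/D and H/ACA snoRNP proteins, -0.19 for large subunit assembly factors, 2.31 for other nucleolar gene names, -0.14 for eIF3 subunits, -0.38 for eIF4E-binding proteins, -0.061 for the eIF5 and eIF6 group. Without rats 75, 78 and 80, chosen after seeing the data, counts came to 9 for other ribosome biogenesis factors, 1 for nucleolar phosphoproteins, beside 6.34% of all genes. Limma there called 0 in initiation members, eIF3 subunits, eIF4E-binding proteins, the eIF5 and eIF6 group. At an unadjusted p under 0.05, 30 members were lower and 7 higher, beside 4912 of all 14786 genes tested in either direction. Medians (log2) moved to 0.086 for eIF2 kinases.

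With each rat left out in turn, values ran from 1411 to 2680 for all DE genes, 803 to 1461 for DE genes higher within WOS, 608 to 1219 for DE genes lower within WOS, 12 to 30 for members called, 10 to 28 for members, 10 to 20 for ribosome biogenesis members, 0 to 8 for initiation members, 5 to 16 for other ribosome biogenesis factors, 1 to 2 for nucleolar phosphoproteins, 1 to 4 for small subunit processome proteins, 0 to 2 for the eIF1 group, 0 to 1 for the eIF2 and eIF2B group, 0 to 2 for eIF3 subunits, 0 to 1 for eIF4E-binding proteins, 0 to 1 for the eIF4F group, 0 to 1 for the eIF5 and eIF6 group. A minimum of 10 in every rat left no value for 13 of 74 genes named by the rule, with *Nol3* and *Nhp2* as the 2 members among them. No paired analysis was possible because the ages share no rat numbers. Depth before scaling is unknown, so precision at low counts cannot be given for each rat.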
